A study of Mus musculus with 15 samples.

Results

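The genes described here are 39 genes that mark macrophages and monocytes or carry out their work, taken by symbol from a table of 56748 mouse genes. All 39 were found. RNA was sequenced from kidney and lung tissue of male wild-type (WT) C57Bl/6 mice, 15 libraries in all, with 3 libraries in each of 5 groups. WTK were kidneys of mice given vehicle, and the labels name no antibody for them. IgGK were kidneys injured with 1 dose of folic acid (200 mg/kg) and treated with control IgG, and LepK were kidneys injured in the same way and treated with a neutralizing leptin antibody (LepAb). Those mice were 10 to 12 weeks old, and their kidneys were collected on day 28 after an antibody course of 21 days. IgGL and LepL were lungs of 12-week-old mice given bleomycin (1.5 units/kg) into the airway and then IgG or LepAb for 14 days, collected on day 14. The antibodies were dosed at 10 mg/kg. No vehicle lung was analysed here, so the lung data hold the antibody contrast but not the injury contrast. Organ, injury agent and day of collection differ together between kidney and lung.

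Macrophages arise from circulating monocytes or from cells seeded in the tissue before birth. Their survival depends on the receptor Csf1r, which binds the cytokines Csf1 and Il34, and their gene program depends on the transcription factor PU.1, encoded by Spi1. In injured kidney and lung they clear debris through scavenger receptors, lectins and Fc receptors, digest it in lysosomes, store the lipid it brings, and exchange signals with the fibroblasts that lay down scar. Several of the surface proteins carry no signalling tail of their own and pass their signal through the adaptors Tyrobp and Fcer1g, which hold the tyrosine motif known as ITAM.

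Levels are given as CPM (the counts of a gene as a share of its library, in the usual per-million unit) after scaling the libraries of 1 organ to each other, so CPM of different genes are not compared. A gene was called changed where edgeR's quasi-likelihood test gave a Benjamini-Hochberg adjusted p under 0.05 over all genes tested and the log2 fold change was over 0.5 in size. Errors of fold changes are standard errors, and n = 3 libraries a group throughout. Libraries held 25913969 to 38924788 counts. The 3 genes used to check the cell identity, Adgre1, Cd68 and Csf1r, were detected in all 15 libraries. Bulk RNA of a tissue cannot tell fewer macrophages apart from less RNA of these genes per macrophage, or from less RNA of them in other cells. This holds for every difference below.

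Several members lie next to close relatives in the genome (coordinates of GRCm39, the build named in the submitters' processing notes). The lysozyme genes Lyz2 (ENSMUSG00000069516, chromosome 10, 117113236 to 117118226) and Lyz1 (ENSMUSG00000069515, 117123702 to 117128773) are neighbours on the minus strand. The Fc receptor genes Fcgr4 (chromosome 1, 170846489 to 170857330) and Fcgr3 (170878743 to 170892504) lie beside each other, and Ms4a7, Ms4a4a and Ms4a6c lie within chromosome 19, 11298403 to 11459556. Reads that fit 2 such relatives could have been split between them, as could reads of Lilrb4a, so their separate values are less certain. The libraries did not mark the strand. Reads of Csf1r therefore cannot be told from those of the overlapping antisense gene Hmgxb3 (12248 counts against 72903 over all libraries), nor those of Ms4a6c from the antisense transcript BE692007 (2786 against 4451). The listed interval of Cx3cr1 spans further genes, among them Gorasp1, Csrnp1 and Wdr48.

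RefSeq promoter sequences (GRCm38.p6, a build older than that of the counts) were matched for 26 of the 39 genes, and the 250 bases before each start were read on both strands for GAGGAAG, the core of the site that PU.1 is known to bind. It was present in 7 of the 26, or 26.9%, against 10.6% of the 32851 promoters in the RefSeq table. A gene was counted if any of its starts had the motif, while the 32851 promoters were counted singly. The 2 shares therefore differ in unit, which favours genes with several starts. The 7 were Marco, Trem2, Cd300a, Fcgr1, Fcgr3, Fcgr4 and Laptm5. The motifs TCACATGA and TCACGTGA, which the MITF and TFE factors are known to bind, were in none of the 26 and in 0.846% and 0.785% of all promoters. Shown here with GAGGAAG or its complement in capitals are Trem2, which had one of the largest changes in kidney, and Fcgr1 and Fcgr3, which fell in both organs. Lyz1 and Lyz2, whose antibody change differed between kidney and lung, follow, and their 2 sequences are identical in 78.8% of aligned positions. Each runs 5′ to 3′ on the strand of its gene.
Trem2, chr17:48346151-48346400 (+ strand): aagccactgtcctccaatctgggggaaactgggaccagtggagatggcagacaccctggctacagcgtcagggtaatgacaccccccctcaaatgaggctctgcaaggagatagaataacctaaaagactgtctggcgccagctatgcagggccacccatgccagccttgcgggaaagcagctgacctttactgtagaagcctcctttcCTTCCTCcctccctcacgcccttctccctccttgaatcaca
Fcgr1, chr3:96293970-96294219 (- strand): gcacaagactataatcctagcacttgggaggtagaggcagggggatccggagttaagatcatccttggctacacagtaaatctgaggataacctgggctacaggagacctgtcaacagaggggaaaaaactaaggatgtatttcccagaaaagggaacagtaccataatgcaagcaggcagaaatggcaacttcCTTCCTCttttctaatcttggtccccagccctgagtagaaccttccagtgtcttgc
Fcgr3, chr1:171059404-171059653 (- strand): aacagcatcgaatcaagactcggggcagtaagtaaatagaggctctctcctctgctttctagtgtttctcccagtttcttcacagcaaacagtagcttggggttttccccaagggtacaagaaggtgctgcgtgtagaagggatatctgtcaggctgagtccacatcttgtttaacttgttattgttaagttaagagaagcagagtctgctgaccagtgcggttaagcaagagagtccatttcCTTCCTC
Lyz1, chr10:117292869-117293118 (- strand): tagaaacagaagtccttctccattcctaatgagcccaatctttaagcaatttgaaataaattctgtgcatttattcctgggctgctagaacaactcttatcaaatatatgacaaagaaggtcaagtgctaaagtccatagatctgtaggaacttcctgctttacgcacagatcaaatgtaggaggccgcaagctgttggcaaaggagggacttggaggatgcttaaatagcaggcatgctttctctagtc
Lyz2, chr10:117282273-117282522 (- strand): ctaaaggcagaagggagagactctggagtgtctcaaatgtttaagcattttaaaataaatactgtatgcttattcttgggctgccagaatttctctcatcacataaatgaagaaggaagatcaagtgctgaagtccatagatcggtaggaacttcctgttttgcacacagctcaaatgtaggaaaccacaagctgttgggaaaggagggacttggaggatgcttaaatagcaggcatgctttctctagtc
The motif began 41 bases before the start of Trem2, 56 before that of Fcgr1 and 7 before that of Fcgr3. A match describes the letters only, and binding was not measured.

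The first question was how these genes differed between folic acid injury and vehicle. IgGK mice were also given control IgG, and the labels name no antibody for WTK. Injury and IgG therefore cannot be told apart here, and "after injury" stands for IgGK against WTK. Nearly the whole group rose. Of the 38 members tested, 37 were higher in IgGK than in WTK and 1, Lpl, was lower, and all 38 were called, while 37.3% of all genes tested were called in this comparison (21.7% higher and 15.6% lower). The median log2 fold change of the members was 2.92, against 0.04 over all genes tested, and the range ran from -0.79 to 7.44. The 39th, Marco, a scavenger receptor of some macrophage subsets, was too low to test. It had no count in the WTK libraries and 0.165, 0.743 and 0.26 CPM in IgGK, which is at least 10.3-fold higher than a floor of 3 counts over the WTK group.

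**Figure D1:**
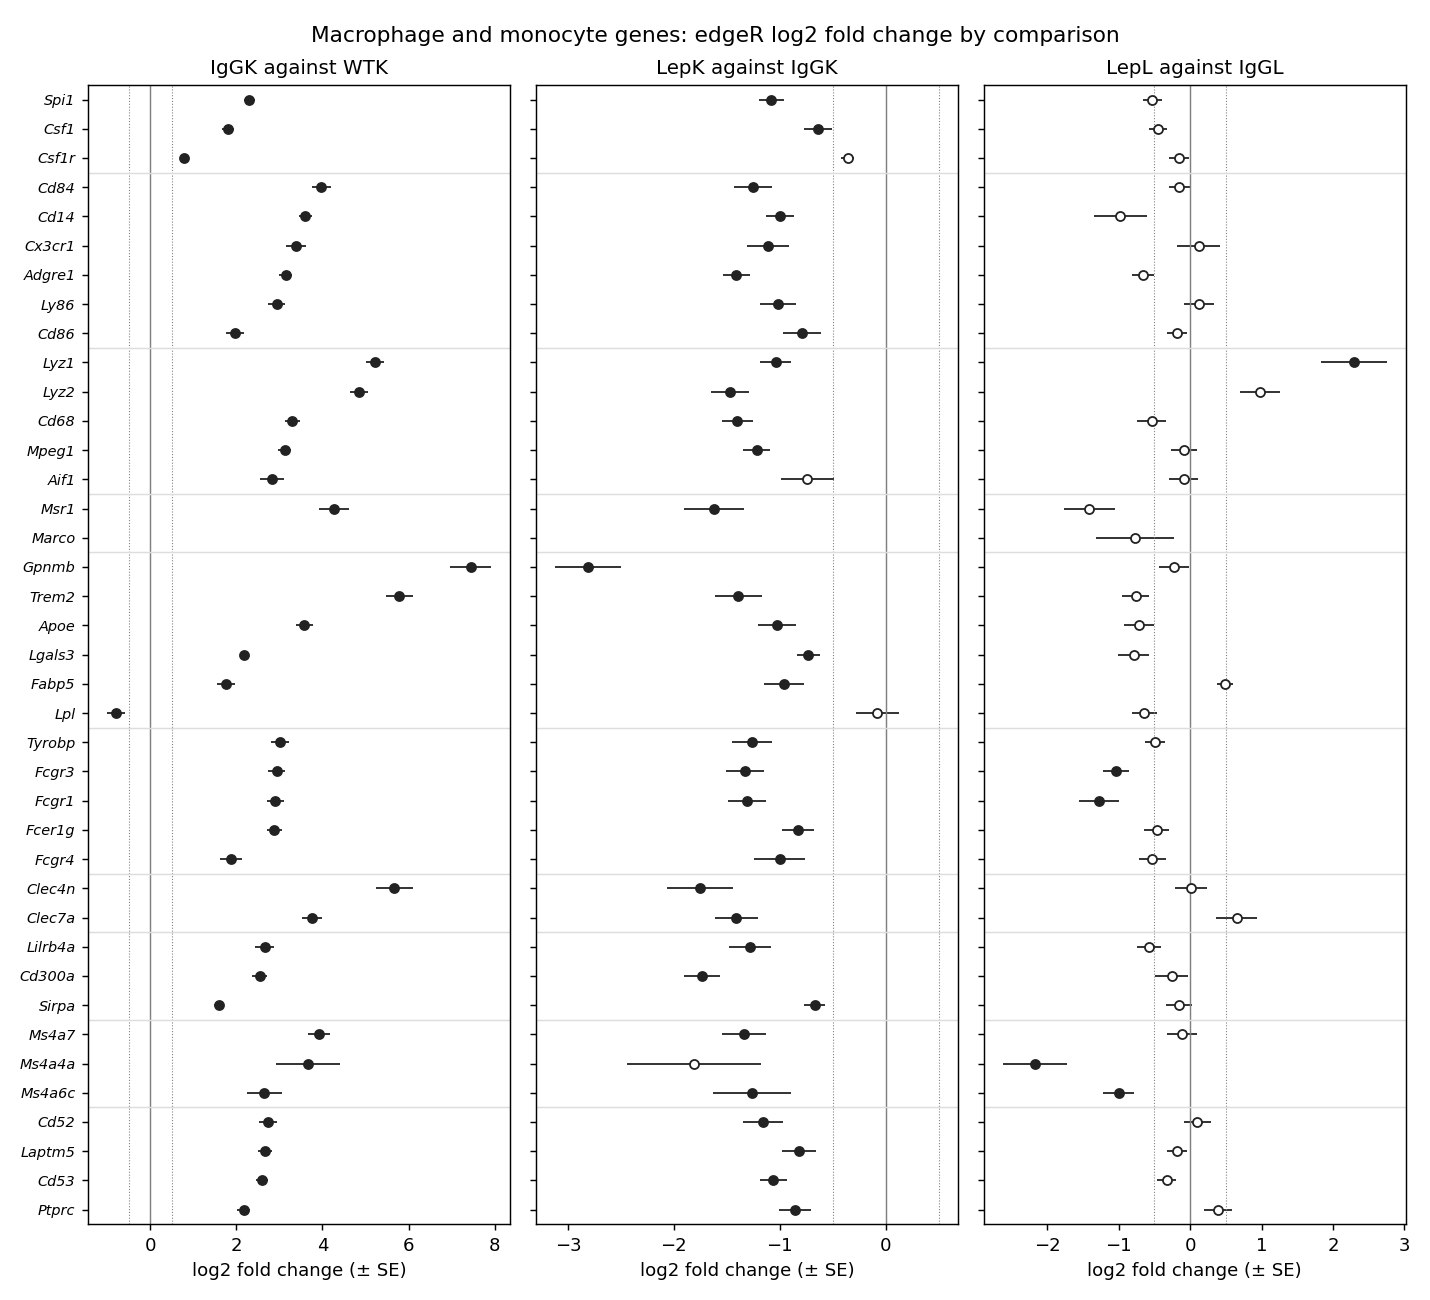
Log2 fold change of each gene (points, with standard errors as lines) in IgGK against WTK, LepK against IgGK and LepL against IgGL, with genes in blocks by role. Filled points passed both thresholds, dotted lines mark 0.5 either way, and Marco has no point in the kidney comparisons because it was not tested there. The kidney points lie right of 0 after injury except Lpl and left of 0 under the antibody, and the lung points lie on both sides.

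The lineage genes had the lowest median rise of all roles, 1.81. Spi1 had 5.61, 5.37 and 5.23 CPM in WTK and 22.7, 31 and 25.8 CPM in IgGK, a log2 fold change of 2.30 ± 0.13 (edgeR adjusted p = 5.62e-08). Csf1, the growth factor, rose from 14.7, 15 and 15.4 CPM to 50.1, 62.8 and 45.7 CPM (1.81 ± 0.14, edgeR adjusted p = 3.52e-07). Its receptor Csf1r had the smallest rise of the 37, from 90.1, 84.8 and 88 CPM to 148, 160 and 147 CPM (0.79 ± 0.06, edgeR adjusted p = 5.94e-07). The groups did not overlap for any of the 3 genes, which was so, in either direction, for 62.6% of all genes tested in this comparison. Divided by gene length, the WTK level of Csf1r was 16.3 CPM per kilobase, against 2.15 for Spi1 and 3.05 for Csf1, and the IgGK levels were 28.2, 10.5 and 10.7.

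The surface and lysosome markers rose together. Adgre1, an adhesion receptor used to identify mouse macrophages, went from 3.78, 4.3 and 4.76 CPM in WTK to 35.5, 40 and 39.2 CPM in IgGK, 8.90-fold. Cd68, a lysosomal membrane protein, went from 4.65, 4.15 and 5.81 CPM to 44.7, 58.4 and 41.5 CPM, 9.87-fold. The other 5 surface genes, Cd14, Cd84, Cx3cr1, Ly86 and Cd86, rose by log2 1.97 to 3.97. Both lysozymes were among the 5 largest rises: Lyz1 from 0.374, 0.434 and 0.793 CPM to 19.9, 21.2 and 19.5 CPM (5.21 ± 0.21), and Lyz2 from 36.6, 33.7 and 46.3 CPM to 1010, 1280 and 1030 CPM (4.84 ± 0.21). Lyz2 was also the most abundant member per kilobase in IgGK, with 905 CPM per kilobase, followed by Apoe with 800.

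The other 3 of the 5 largest rises were Gpnmb, Trem2 and Clec4n. Gpnmb, a glycoprotein of lysosome-rich cells, had 0.332, 0 and 1.01 CPM in WTK and 68.1, 101 and 75.2 CPM in IgGK (7.44 ± 0.47, edgeR adjusted p = 1.2e-07). Trem2, a receptor for lipids that signals through Tyrobp, had 0.415, 0.513 and 0.938 CPM and then 33.4, 42.7 and 28.9 CPM (5.78 ± 0.31, edgeR adjusted p = 4.54e-08). Clec4n, a lectin that binds fungal mannans, had 0.249, 0.197 and 0.216 CPM and then 9.63, 14.8 and 9.77 CPM (5.67 ± 0.42, edgeR adjusted p = 3.44e-07). These 3 genes were close to silent in vehicle kidney, so a few counts there set how large their folds are. Clec7a, the receptor for β-glucan, rose by 3.75 ± 0.23.

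The remaining roles rose within a narrower range. The Fc receptors Fcgr1, Fcgr3 and Fcgr4 and the adaptors Fcer1g and Tyrobp rose by log2 1.88 to 3.02. The inhibitory receptors Cd300a, Lilrb4a and Sirpa rose by 1.59 to 2.66, the MS4A genes by 2.65 to 3.92, and the leukocyte-wide genes Ptprc, Cd52, Cd53 and Laptm5, which T and B cells share, by 2.17 to 2.73. Of the lipid genes, Apoe, a lipid carrier, rose by 3.58 ± 0.19, Lgals3, a galectin, by 2.19 ± 0.11 and Fabp5, a fatty acid carrier, by 1.76 ± 0.20.

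The member that fell was Lpl, the lipase that frees fatty acids from circulating lipoproteins. It had 1480, 895 and 993 CPM in WTK and 785, 511 and 653 CPM in IgGK (-0.79 ± 0.20, edgeR adjusted p = 0.00572). The groups did not overlap, as for 62.6% of all genes tested. With libraries scaled by total counts Lpl stood at -0.35 and was not called (edgeR adjusted p = 0.131). Lpl is also made by fat, muscle and tubule cells. Of 7 adipocyte markers, 5 rose and 1 fell in this comparison, and their summed level was 206 to 305 CPM in WTK and 482 to 730 in IgGK. All 8 proximal tubule markers fell, from a summed 48400 to 50400 CPM to 11700 to 18500. Their part in the Lpl result was not tested.

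The second question was what LepAb did in the injured kidney. The same group moved down. Of the 38 members tested, 34 were called lower in LepK than in IgGK, a share of 89.5%, and none higher, while 5.99% of all genes tested were called lower (4.38% higher and 10.4% either way). The other 4 were also lower but missed a threshold. The median log2 fold change was -1.14 for the members and -0.01 for all genes tested. In 37 of the 38 the 3 LepK libraries lay below the 3 IgGK libraries, which was so, in either direction, for 37.4% of all genes. LepK and the injury comparison share the IgGK libraries, so the opposite directions of the 2 comparisons are not independent.

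Gpnmb fell most. Its 3 LepK libraries had 6.75, 14.3 and 14 CPM, against 68.1 CPM in the lowest IgGK library, a log2 fold change of -2.81 ± 0.31 (edgeR adjusted p = 0.000196), which left 14.3% of the IgGK level. Clec4n had 1.71, 4.02 and 4.47 CPM in LepK (-1.75 ± 0.31, edgeR adjusted p = 0.00211). Cd300a, an inhibitory receptor for lipids of dying cells, had 13.6, 18.5 and 14.6 CPM in IgGK and 4.35, 5.36 and 4.36 CPM in LepK (-1.73 ± 0.17, edgeR adjusted p = 0.000118). Msr1, a scavenger receptor for modified lipoproteins, had 7.65, 11.6 and 9.34 CPM in IgGK and 2.5, 4.36 and 2.4 CPM in LepK (-1.62 ± 0.28, edgeR adjusted p = 0.00202). Of the 5 largest falls, these 4 were called and Ms4a4a, given with the genes that missed a threshold, was not.

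The 3 identity genes and the lineage genes fell by unequal amounts. Adgre1 had 11.5, 15 and 16.8 CPM in LepK, 37.7% of IgGK (-1.41 ± 0.13, edgeR adjusted p = 7.16e-05), and Cd68 had 15, 20.8 and 19.1 CPM, 37.9% of IgGK (-1.40 ± 0.15, edgeR adjusted p = 0.000185). Spi1 had 11.7, 12.8 and 13.2 CPM (-1.08 ± 0.12, edgeR adjusted p = 0.00019) and Csf1 had 27.8, 36.1 and 38.2 CPM (-0.64 ± 0.13, edgeR adjusted p = 0.00454). Csf1r had 115, 123 and 116 CPM, below each IgGK library, and its change of -0.36 ± 0.06 passed the p threshold (edgeR adjusted p = 0.00196) but not the fold threshold. Over the tested members, the LepK mean was 14.3% to 94.6% of the IgGK mean, with a median of 45.55%.

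The other roles fell as groups. All 5 Fc receptor and adaptor genes were called lower, by log2 0.83 for Fcer1g to 1.33 for Fcgr3, as were the 6 surface markers, both lectins and the 3 inhibitory receptors. Of the phagosome and lysozyme genes 4 of 5 were called, with Lyz2 at 276, 466 and 465 CPM in LepK (-1.47 ± 0.18) and Lyz1 at 9.45, 10.3 and 9.82 CPM (-1.04 ± 0.15). Of the lipid genes 5 of 6 were called, among them Trem2 at 8.86, 14.4 and 16.9 CPM (-1.39 ± 0.22) and Apoe at -1.03 ± 0.18. The 4 leukocyte-wide genes fell by 0.82 to 1.16. LepK replicate 1 was the lowest of its group for most members, and its median distance below the IgGK mean, over the members and as log2(CPM + 1), was 1.40 against 0.93 and 0.92 for the other two.

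Beside Csf1r, 3 members were not called. Ms4a4a, a tetraspan-like membrane protein of macrophages, was low throughout, with 2.41, 1.11 and 1.56 CPM in IgGK and 0.296, 0.805 and 0.332 CPM in LepK (-1.81 ± 0.63, edgeR adjusted p = 0.0613). Aif1, a calcium-binding protein of activated macrophages, had 18.6, 28.7 and 19.3 CPM in IgGK and 8.46, 17.1 and 14.3 CPM in LepK (-0.74 ± 0.25, edgeR adjusted p = 0.0519). Lpl had 705, 674 and 465 CPM in LepK, within the range of IgGK (-0.08 ± 0.20, edgeR adjusted p = 0.825). Lpl was the only one of the 38 whose LepK and IgGK libraries overlapped. The call of Ms4a6c (-1.26 ± 0.37, edgeR adjusted p = 0.0325) was lost whenever any 1 of the 6 libraries was left out.

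**Figure D2:**
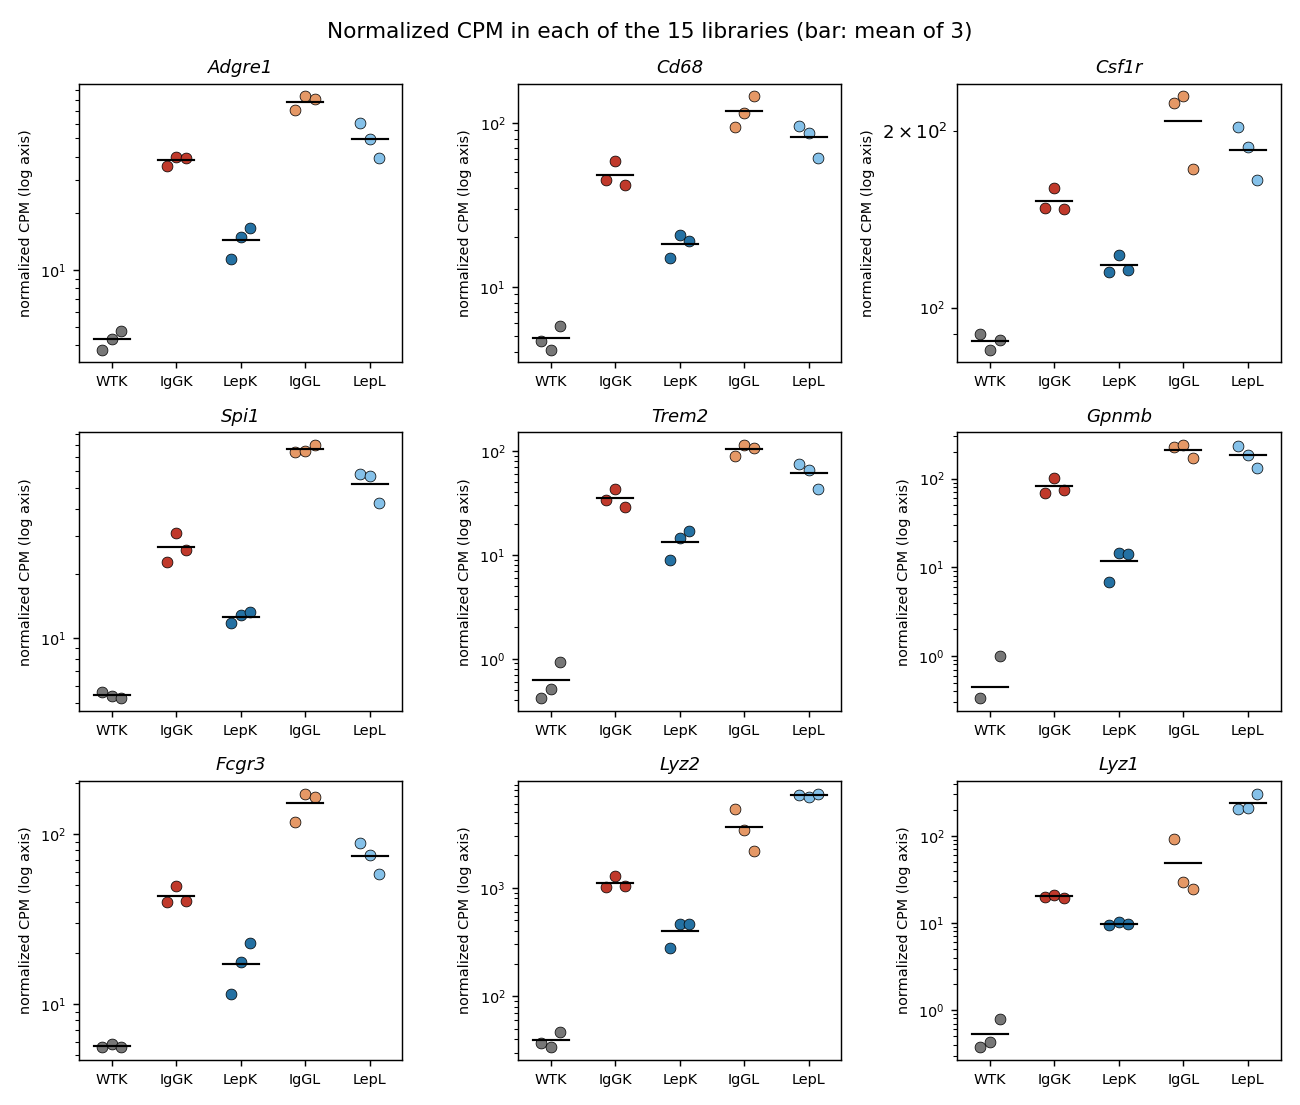
Normalized CPM on a log axis for 9 genes in each of the 15 libraries (points, bars at the mean of 3), with kidney and lung libraries scaled within their own organ. The 1 WTK library of Gpnmb at 0 is not drawn but enters the mean. In kidney LepK lies between WTK and IgGK for all 9 genes, and in lung Lyz1 and Lyz2 are higher in LepL than in IgGL while Adgre1, Spi1, Trem2 and Fcgr3 lie lower, of which Fcgr3 was called.

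Levels in LepK did not come down to those of vehicle kidney. Against WTK, 35 of the 38 members were called higher in LepK and Lpl lower, while 22.5% of all genes tested were called (15.2% higher and 7.3% lower). The median log2 fold change was 1.81 for the members and 0.03 for all genes. Gpnmb was still 24.9-fold above vehicle, Trem2 21-fold, Lyz1 18.0-fold, Clec4n 15.1-fold and Lyz2 10.3-fold. Adgre1 was 3.36-fold above vehicle (1.75 ± 0.15, edgeR adjusted p = 5.25e-06), Cd68 3.74-fold (1.90 ± 0.17, edgeR adjusted p = 9.32e-06), Spi1 2.33-fold and Csf1 2.26-fold. The smallest called rises were Fabp5 (0.80 ± 0.20), Cd300a (0.81 ± 0.18) and Fcgr4 (0.88 ± 0.26). Csf1r (0.43 ± 0.06, edgeR adjusted p = 0.000224) stayed under the fold threshold, and Ms4a4a (1.85 ± 0.78, edgeR adjusted p = 0.0789) missed the p threshold. Lpl was lower than in WTK by the same test (-0.87 ± 0.21, edgeR adjusted p = 0.00507).

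How far a member moved beyond the 3 identity genes was described within each library as its log2(CPM + 1) minus the mean of Adgre1, Cd68 and Csf1r. With 3 libraries against 3, the exact two-sided permutation test cannot give a p under 0.1, so these are descriptions. The added 1 CPM damps the changes of genes near or under that level, such as Marco and Ms4a4a, which are therefore not read singly on this scale. Over the 36 members beside the 3 identity genes, Marco and Ms4a4a included, the median difference between LepK and IgGK was 0.01. Relative to the 3 genes, Gpnmb stood at -1.73 and Lyz2 at -0.47 in LepK against IgGK, while Lpl stood highest at 0.94. After injury Gpnmb stood at 3.63 and Lyz2 at 2.56. The mean of Gpnmb in WTK was 0.447 CPM, so its value after injury is damped. Csf1r itself moved less than Adgre1 and Cd68 in both kidney comparisons. In LepK against IgGK it stood at 0.66 relative to the mean of the 3, and Adgre1 and Cd68 at -0.34 and -0.33. The median of 0.01 is therefore taken against a mean of genes that moved unequally.

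Other genes of the same pathways were read from 3 lists. The CSF ligand and receptor list had 6 tested genes, of which 6 rose after injury and 4 fell with LepAb. Il34, the second ligand of Csf1r, had 43.2, 37.2 and 36.4 CPM in WTK, 71.2, 73.5 and 73.3 in IgGK and 47, 48.4 and 54.6 in LepK. It rose by 0.90 ± 0.08 (edgeR adjusted p = 1.48e-06) and fell by 0.54 (edgeR adjusted p = 0.000895). Csf2ra and Csf2rb, the chains of the GM-CSF receptor, rose by 1.88 ± 0.18 and 2.57 ± 0.19, and their antibody changes were -0.53 ± 0.17 and -0.78 ± 0.17, both called. Of 15 myeloid transcription factors 11 rose and 1 fell after injury, and 4 fell with LepAb, while 11 were not called. Irf8, a partner of PU.1, rose by 1.52 ± 0.14 and then stood at -0.48 ± 0.14, under the fold threshold. Of 15 genes of ITAM and ITIM signalling 14 rose and 8 then fell, among them Syk, the kinase that docks on ITAMs, at 2.37 ± 0.21 and -0.74 ± 0.19. The medians of the 3 lists under LepAb were -0.67, -0.36 and -0.62, all nearer to 0 than the -1.14 of the members. Among the lists of cell markers, the median was -1.46 for 6 tested neutrophil markers. For 8 tested resident macrophage markers, of which 5 fell, it was -1.24. The fibroblast and the injured tubule markers each had -0.99. Medians were -0.8 for monocyte, -0.49 for T cell, -0.48 for dendritic cell, -0.22 for B cell and 0.71 for proximal tubule markers. A fall of this size was thus not particular to the members.

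Markers of other cells moved beside the macrophage genes in kidney. After injury all 10 T cell markers, all 9 dendritic cell markers, 5 of 6 tested neutrophil markers, all 10 fibroblast markers and all 7 injured tubule markers rose, while 1 of 8 B cell markers rose and none fell. With LepAb, 4 of 6 neutrophil, 8 of 10 fibroblast and 6 of 7 injured tubule markers fell, 6 of 8 proximal tubule markers rose, and 1 of 10 T cell markers, 2 of 9 dendritic cell markers and no B cell marker fell. The summed fibroblast level was 229 to 294 CPM in WTK, 1510 to 1710 in IgGK and 576 to 926 in LepK. Of 12 monocyte markers 7 rose and 1 fell after injury, and 6 fell and 2 rose with LepAb, with a summed level of 391 to 431 CPM in WTK, 324 to 331 in IgGK and 278 to 332 in LepK. Most of the monocyte sum in WTK was Ace, whose mean was 360 CPM there, against 121 for IgGK and 190 for LepK. Ace was the 1 marker that fell after injury (-1.57 ± 0.20) and 1 of the 2 that rose with LepAb (0.64 ± 0.19). The lower monocyte sum after injury therefore follows Ace and does not describe the 7 markers that rose. The neutrophil sum was 3.4 to 3.99, 22.3 to 31.3 and 10.5 to 13.1 CPM in the same order of groups. Several members, such as Fcgr3, Cd14 and Ptprc, are also made by neutrophils or lymphocytes, and the part of those cells in the results was not tested.

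In the injured lung the same genes stood higher than in the injured kidney. Scaled over all 15 libraries and per kilobase, 26 of the 39 were higher in all IgGL than in all IgGK libraries, 3 were lower and 10 overlapped. Of 21696 genes scaled in the same way, 31% were higher without overlap, 34% lower and 35% overlapped. The gap was widest for Marco, with 0.217 CPM per kilobase in IgGK and 11.6 in IgGL, followed by Ms4a4a (2.17 and 17.2), Msr1 (1.61 and 12.1) and Clec4n (8.60 and 39.6). Lyz2 had 2490 CPM per kilobase in IgGL. The 3 genes that stood lower in lung were Cx3cr1, the receptor of fractalkine (12.4 and 5.44), Ms4a7 (7.94 and 4.65) and Aif1 (15.5 and 10.1). These are levels without a test.

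The third question was what LepAb did in the injured lung. The group did not move as one. Of 39 members 4 were called lower and 1 higher in LepL than in IgGL, a share of 12.8%, while 4.14% of all genes tested were called (2.36% lower and 1.78% higher). Of the members 30 were lower and 9 higher, the median log2 fold change was -0.33 against 0 for all genes, and 22 had an unadjusted p under 0.05, as did 27.3% of all genes tested. The libraries lay apart in 17 members on the lower and 3 on the higher side, which was so for 33.3% of all genes. The count of calls rests on the libraries and the tool. DESeq2 called 15 members, 13 of them lower, and 12.3% of all genes it tested. Leaving out IgGL replicate 1 gave 21 calls (16 lower and 5 higher) and 17.3% of all genes. With any other lung library left out edgeR called no member, with 18 to 24 members at an unadjusted p under 0.05, and 0 to 22 genes in all.

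The 3 IgGL libraries differed from each other more than the IgGK libraries did. Marco had 6.62, 24.8 and 43.4 CPM in IgGL replicates 1 to 3, Msr1 43.4, 85.8 and 127, Cd14 61.8, 73.3 and 191, and Lyz1 92.2, 29.5 and 24.4. Replicate 1 was lowest for the scavenger receptors and Cd14 and highest for the lysozymes, and replicate 3 was the reverse.

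The genes called lower were 2 Fc receptors and 2 MS4A genes. Fcgr3, a low-affinity IgG receptor, had 117, 172 and 166 CPM in IgGL and 88.1, 75.4 and 58.4 CPM in LepL (-1.04 ± 0.18, edgeR adjusted p = 0.0337). Fcgr1, the high-affinity IgG receptor, had 33.7, 43.3 and 60.8 CPM and then 26.7, 16.6 and 13.4 CPM (-1.28 ± 0.28, edgeR adjusted p = 0.0441). Ms4a4a fell from 6.68, 17.5 and 24 CPM to 4.18, 4.29 and 2.24 CPM (-2.17 ± 0.45, edgeR adjusted p = 0.0395) and Ms4a6c from 18.8, 24.9 and 27.9 CPM to 13.6, 13.6 and 8.49 CPM (-1.0 ± 0.22, edgeR adjusted p = 0.0443). The groups did not overlap for any of the 4. Msr1, with 33.8, 41.3 and 21.6 CPM in LepL, lay below each IgGL library. It was not called by edgeR (-1.41 ± 0.36, edgeR adjusted p = 0.0589), while DESeq2 called it lower. Fcgr1, Fcgr3 and Ms4a6c were called lower in both organs, of 34 members called lower in kidney and 4 in lung. The share of all genes called lower in both was not counted, so this overlap is not read as a trait of the members. All 4 lung calls were lost when any lung library except IgGL replicate 1 was left out.

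The identity and lineage genes were lower on average and were not called by edgeR, while DESeq2 called Adgre1, Cd68 and Spi1 lower. Adgre1 had 70.6, 83.7 and 80.8 CPM in IgGL and 60.4, 49.6 and 39.4 in LepL (-0.66 ± 0.15, edgeR adjusted p = 0.0501), without overlap. Cd68 had 94.8, 115 and 145 CPM and 95.8, 87 and 61.3 CPM, which overlapped (-0.54 ± 0.20, edgeR adjusted p = 0.12). Spi1 had 74.2, 74.6 and 79.5 CPM and 58.3, 56.9 and 42.7 CPM, without overlap (-0.53 ± 0.13, edgeR adjusted p = 0.0526). Csf1 had 96, 117 and 124 CPM and 77.9, 88.2 and 80.6 CPM (-0.45 ± 0.12, edgeR adjusted p = 0.061). Csf1r had 223, 229 and 172 CPM and 203, 188 and 165 CPM, with overlap (-0.16 ± 0.14, edgeR adjusted p = 0.476). Gpnmb, the gene that fell most in kidney, had 229, 238 and 169 CPM in IgGL and 231, 185 and 130 CPM in LepL (-0.22 ± 0.21, edgeR adjusted p = 0.535).

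The gene called higher in lung was Lyz1. Its level was 92.2, 29.5 and 24.4 CPM in IgGL and 205, 207 and 304 CPM in LepL, a 4.90-fold rise (2.29 ± 0.46, edgeR adjusted p = 0.0386). Lyz2 went from 5320, 3400 and 2200 CPM to 7150, 6980 and 7380 CPM, without overlap. It was not called by edgeR (0.98 ± 0.28, edgeR adjusted p = 0.0752), while DESeq2 called it higher. Both lysozymes thus stood higher in every LepL library than in any IgGL library. Lyz1 and Lyz2 are also made by alveolar type 2 cells. Of 7 markers of those cells 4 were called higher in LepL and none lower, with a median of 0.62, among them Lamp3 (1.62 ± 0.34) and Sftpc (1.40 ± 0.28). Their summed level was 12700, 8650 and 7080 CPM in IgGL replicates 1 to 3 and 18300, 21500 and 24600 CPM in LepL, and no marker of the list was at 0 in a lung library. The part of alveolar type 2 cells in the lysozyme result was not tested.

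The next largest rises in lung were Clec7a, Fabp5 and Ptprc. Clec7a had 129, 76.2 and 54.5 CPM in IgGL and 169, 132 and 107 CPM in LepL, with overlap (0.65 ± 0.29, edgeR adjusted p = 0.187). Fabp5 had 101, 79.3 and 96.5 CPM and 131, 133 and 125 CPM, without overlap, and passed the p threshold but not the fold threshold (0.49 ± 0.11, edgeR adjusted p = 0.0471). Ptprc, the pan-leukocyte phosphatase CD45, had 147, 106 and 94 CPM and 184, 129 and 142 CPM (0.39 ± 0.19, edgeR adjusted p = 0.216). Beside Ptprc, the T cell markers had a median of 0.69 and the B cell markers 1.05 with no gene called, and their part in the Ptprc value was not tested. The adipocyte list, set beside Fabp5 and Lpl, had 2 of 6 tested genes called higher, and Lpl stood at -0.64 ± 0.18 (edgeR adjusted p = 0.0674).

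**Figure D3:**
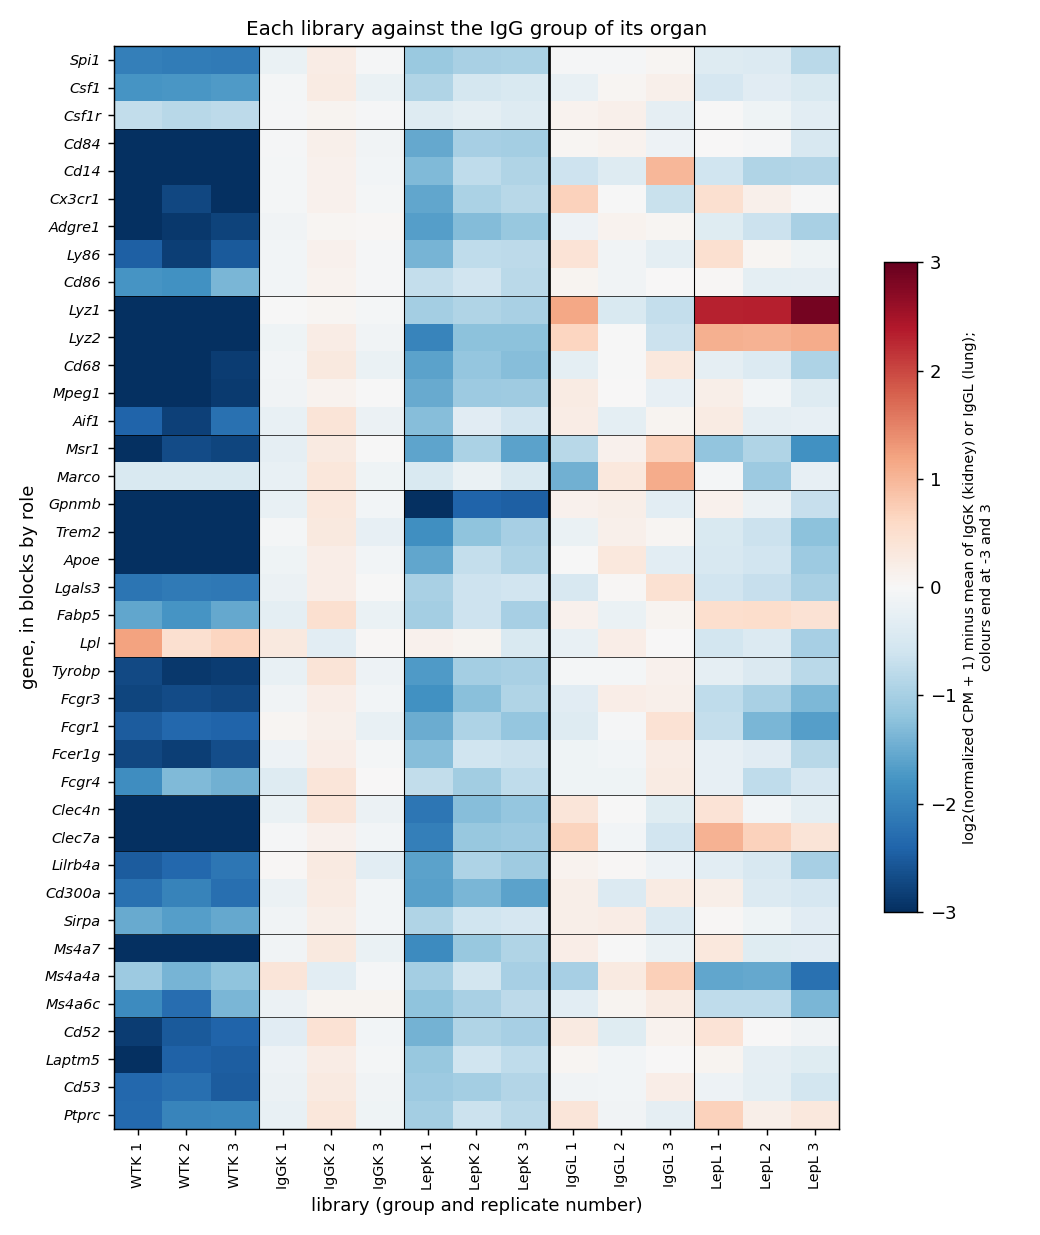
Log2(normalized CPM + 1) of each gene in each library minus the mean of the IgG-treated group of the same organ (IgGK or IgGL), with libraries as columns, genes in blocks by role as rows, and colours ending at -3 and 3. The LepK columns are blue in nearly every row, and the LepL columns hold blue for the Fc receptors, Msr1 and Ms4a4a, and red for Lyz1, Lyz2 and Fabp5.

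Lists of other macrophage subsets and leukocytes were read in the same lungs. Of 10 resident macrophage markers 4 were called lower and none higher, with F13a1 at -2.04 ± 0.36 and Cd163 at -1.63 ± 0.38. Their summed level was 1280 to 1700 CPM in IgGL and 931 to 1100 in LepL. The largest parts of that sum were Lyve1 (means of 445 CPM in IgGL and 220 in LepL) and Gas6 (433 and 480). The part of other cells in it was not tested. Of 13 alveolar macrophage markers 1 was called, Cidec, which rose by 1.29 ± 0.18 and is also on the adipocyte list. Of 12 monocyte markers 2 were called lower and 1 higher, and their sum was 1910 to 2770 CPM in IgGL and 1390 to 1590 in LepL. Most of that sum was Ace (means of 1200 CPM in IgGL and 738 in LepL) and Chil3 (712 and 346). Of 10 fibroblast markers 6 were called lower, with sums of 7970 to 9040 and 3700 to 4960 CPM. Of 12 neutrophil markers 6 were called lower, and their sum was 259 to 646 CPM in IgGL and 131 to 165 in LepL. Fcgr3 and Cd14 are also made by neutrophils, and the part of those cells was not tested. Of the CSF list 1 of 7 genes was called lower in lung, and of the ITAM and ITIM list 3 of 15, with Fcgr2b, the inhibitory IgG receptor, at -0.82 ± 0.18. Il34 stood at 19.6, 19 and 17.6 CPM in IgGL and 19.8, 18.2 and 19.4 in LepL (0.03 ± 0.12).

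Whether the antibody change differed between the organs was tested in 1 fit of the 12 injured libraries. Of 39 members 13 had a lower value in kidney than in lung at an adjusted p under 0.05 and none a higher one, while 3.62% of all genes tested were lower, 3.51% higher and 7.12% passed in either direction. The median difference was -0.67 for the members and -0.01 for all genes. The widest gaps were those of Lyz1 (-3.30 ± 0.54, edgeR adjusted p = 0.00878), Gpnmb (-2.56 ± 0.37, edgeR adjusted p = 0.00598), Lyz2 (-2.41 ± 0.37, edgeR adjusted p = 0.00733) and Clec7a (-2.04 ± 0.41, edgeR adjusted p = 0.0191). Those of Clec4n, Cd300a, Fabp5, Cd52, Ptprc, Ly86, Mpeg1, Cd84 and Cd53 were -0.70 to -1.73. Both lectins and 3 of the 4 leukocyte-wide genes were among the 13, and none of the 5 Fc receptor and adaptor genes, the 3 MS4A genes or the 3 lineage genes was. For Fcgr1 the difference was 0.00 ± 0.40 and for Adgre1 -0.72 ± 0.22 (edgeR adjusted p = 0.0607), and a value that misses the threshold does not show equal effects. Leaving out IgGK replicate 2, IgGL replicate 2 or LepK replicate 1 left 5, 6 and 7 of the calls. The share of all genes called fell with them, from 7.12% to 1.64%, 1.58% and 1.89%. Lyz1, Lyz2, Gpnmb and Fabp5 were called without each library in turn. Of the other pathway genes Il34 differed in the same way (-0.54 ± 0.12, edgeR adjusted p = 0.0229).

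**Figure D4:**
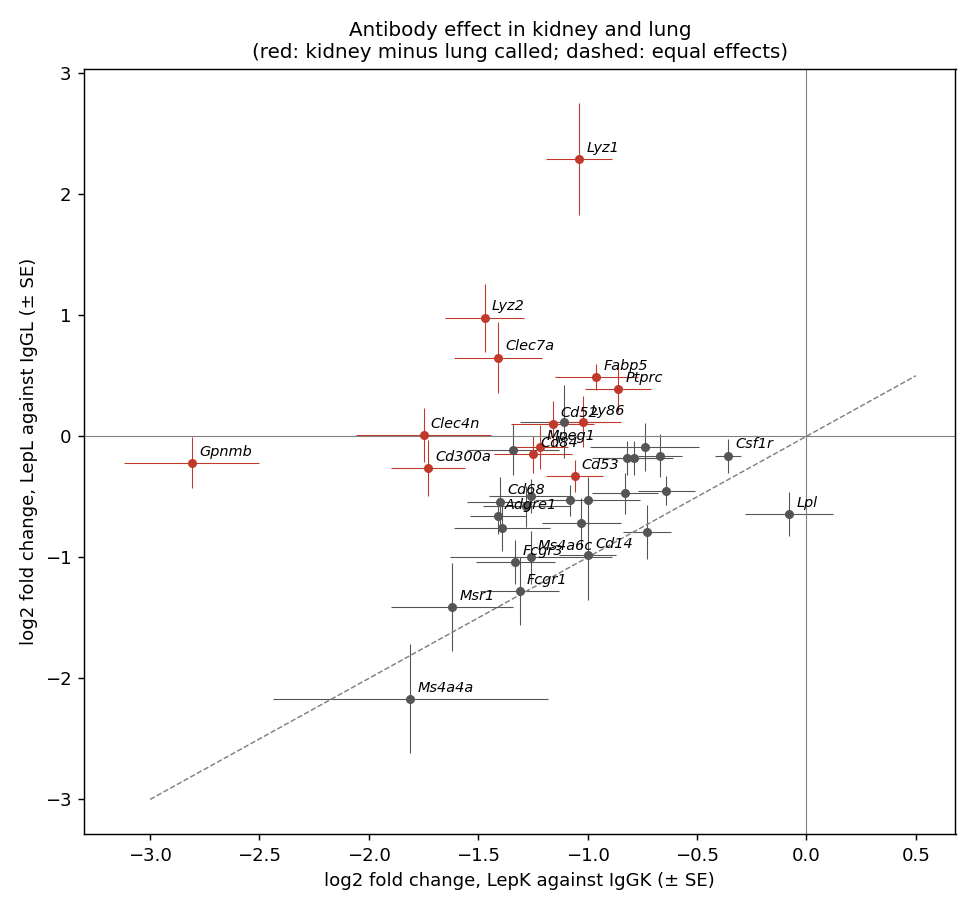
Log2 fold change under the leptin antibody in kidney (LepK against IgGK, horizontal) and in lung (LepL against IgGL, vertical) for the 38 genes tested in both, with standard errors as lines. The dashed line marks equal changes and the 13 genes whose difference was called are red. All 38 lie left of 0 in kidney, while in lung Lyz1 reaches 2.29 and Ms4a4a -2.17.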

How the data were processed

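The deposited table held whole-number read counts per gene for each library, made by the authors before deposit. Genome build GRCm39 (mm39) and DESeq2 are named in the submitters' processing notes, and the aligner, counter and annotation are not given in the sources used here. Poly(A) RNA was sequenced without strand information. FPKM values deposited by the authors in the same table, their group means and their own fold changes and p-values were not used. Gene length came from the table.

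Libraries were grouped by title, tissue and treatment labels and matched to the table by their library codes. A further description line that names a column disagrees with those labels and was not used, and the code of LepL replicate 3 is extended in the table, unlike those of the other libraries, for a reason not given in the sources used here. The study gives 3 mice for each lung group and n = 3 for each kidney group, without naming the kidney unit. Counts were analysed with edgeR 4.0.16 (R 4.3.3): TMM scaling, filterByExpr (minimum count 10, minimum total count 15), and the quasi-likelihood test with Benjamini-Hochberg adjustment over all genes tested. The kidney fit held 9 libraries and 19593 genes, the lung fit 6 libraries and 19617 genes, and the fit of the difference between organs 12 libraries and 21488 genes, where a call needed an adjusted p under 0.05 alone. Depth was 25913969 to 38924788 counts a library, and in chi-square tests replicates differed by 7.15 to 98.6 times the counting noise per gene, so none was a copy of another. The scripts were tested on simulated data.

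Values in every library were printed for Adgre1, Cd68, Csf1r, Csf1, Spi1, the 5 largest rises and falls of each comparison and the genes that went against most, and ranges for the rest. From the other lists at most 2 called genes a list were named, beside Il34, Csf2ra, Csf2rb, Irf8 and Syk. Ace and Chil3 were named for their weight in the monocyte sums, and Lyve1 and Gas6 for theirs in the lung resident macrophage sum. Alternatives were other scalings, no filter on low counts, other fold thresholds, DESeq2 1.42.0, a replicate block, fits of 2 groups and leaving out each library. The members, lists and tests were chosen with earlier results of these data known. Promoter sequences came from RefSeq (GRCm38.p6), and lysozyme promoters were aligned with Biopython. A result that rests on an item withheld for evaluation is not reported here.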

Additional observations from a re-analysis of the deposited data

Results flagged for a closer look

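For 13 genes the antibody change differed between kidney and lung in a test of the difference itself (edgeR, kidney minus lung on the log2 scale). The lysozymes had -3.30 for Lyz1 and -2.41 for Lyz2, and Gpnmb had -2.56. The lectins had -2.04 for Clec7a and -1.73 for Clec4n. Cd300a had -1.44, Fabp5 -1.42, Mpeg1 -1.10, Cd84 -1.07 and Ly86 -1.12. The leukocyte-wide genes had -1.23 for Cd52, -1.22 for Ptprc and -0.70 for Cd53. Organ, injury agent and day of collection cannot be told apart in this difference. Alveolar type 2 markers, which moved with the lysozymes in lung, are given beside them above, and their part was not tested. Groups held 3 libraries, so no search for single outlying libraries was made.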

How the results depend on the processing

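The kidney calls held their directions. Leaving out each library in turn gave 38 calls after injury, 31 to 35 for LepK against IgGK and 34 to 36 for LepK against WTK. Over all genes the shares called were 32.9% to 35.6%, 6.44% to 11.2% and 18% to 24.5%. Without IgGK replicate 2, Csf1 and Fcgr4 were lost with Ms4a6c in LepK against IgGK. Under scaling by total counts, the median log2 fold change over all genes tested was 0.48 after injury, -0.19 for LepK against IgGK, 0.29 for LepK against WTK and -0.25 for the difference between organs. With that scaling 38 of 38 members stayed lower in LepK than in IgGK, and 37 were called. After injury the same scaling called 7803 genes higher and 1178 lower over the whole table, against 4253 and 3057, and left Lpl uncalled. For LepK against IgGK it called 408 higher and 2185 lower, against 858 and 1174, for LepK against WTK 4782 and 512, against 2984 and 1431, and for the difference between organs 249 and 1968, against 754 and 777.

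The lung count of 5 calls (4.14% of all genes) was 19 with no filter on low counts (7.66%), 15 with DESeq2 (12.3%) and 0 with the replicate block in edgeR (0.0204%, with 21 members at an unadjusted p under 0.05), and leaving out each library gave 0 to 21. The cause was not tested. The difference between organs had 20 calls under scaling by total counts (10.3% of all genes) and 22 with no filter (7.12%), against 13 (7.12%). When a library was left out it had 5 to 15 calls, with 1.58% to 16.9% of all genes called.

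The labels give equal replicate numbers no stated meaning. The deviations of same-numbered libraries had correlations of -0.121 to 0.261, not all above 0.1. The highest, 0.261 and 0.242, were those of numbers 1 and 2 in LepK against IgGK. Whether some same-numbered libraries were handled together was not tested. With the replicate block 35 members were called for LepK against IgGK (10.8% of all genes) and 15 for the difference between organs (5.85%).

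Near 0, leaving out libraries turned the sign for Lpl in LepK against IgGK (-0.22 to 0.09) and in lung for Ms4a7 (-0.38 to 0.02), Mpeg1 (-0.25 to 0.04), Aif1 (-0.30 to 0.03), Clec4n (-0.22 to 0.21), Cd52 (-0.07 to 0.24), Ly86 (-0.07 to 0.36) and Cx3cr1 (-0.16 to 0.55). None of these 8 was called. Low counts limit Marco and Ms4a4a in kidney.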
